A study of Danio rerio x Danio aesculapii and Danio rerio x Danio albolineatus and Danio rerio x Danio kyathit with 48 samples.

Results

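Melanophores are the black, melanin-making pigment cells of fish skin, and in hybrids between Danio species each of these cells carries a chromosome set from either parent. The libraries described here are the 3 melanophore-enriched RNA libraries, of 48 in the series, from hybrids of a D. rerio (zebrafish) mother and a D. aesculapii father. They were chosen by their labels, and within each library the value of the paternal allele was set against the value of the D. rerio allele for each of 19616 nuclear genes, after 13 mitochondrially encoded genes had been left out. The cells came from adult hybrid skin that carried the reporter tyrp1b:mem-mCherry, a membrane-bound fluorescent protein driven by regulatory DNA of a melanin gene, and were enriched by fluorescence-activated sorting. The comparison groups were unenriched whole skin of the same hybrid (3 libraries), its iridophore-enriched cells sorted on pnp4a:mem-mCherry (3) and xanthophore-enriched cells sorted on aox5:mem-EGFP (3), and melanophore-enriched cells from hybrids fathered by D. albolineatus, D. kyathit or D. nigrofasciatus (9 in all). All these groups share the D. rerio mother. Replicates carry the numbers 3, 4 and 5, which the labels call batches. Because the mother was always D. rerio, species of origin and sex of the parent cannot be told apart. The labels do not say which parent carried the reporter, nor whether each replicate was a different fish, so the p-values reflect variation among these libraries only, part of which may be technical.

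In a hybrid cell both alleles of a gene meet the same transcription factors, hormones and surroundings. An unequal output of the 2 alleles is therefore commonly read as a difference that lies on the allele itself, in regulatory DNA or in the stability of its transcript, whereas a difference in factors acting on both copies leaves the ratio near equality. Melanophores make melanin in melanosomes, organelles related to lysosomes, with enzymes of the tyrosinase family. Zebrafish melanophores form dark stripes, and adult D. aesculapii have irregular bars.

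The unit throughout is the deposited value, an allele-specific read count that the authors had scaled per allele column and rounded. Because each allele column had been scaled on its own, the balance of the alleles over all genes was not measured, and the paternal allele held 52, 50.2 and 49.5% of the summed value in replicates 3, 4 and 5. Steps between low values let reads be counted back in replicates 3 and 4, where the paternal allele had held 43.2% and 35.6% of reads before that scaling. Replicate 3 had 2068939 paternal and 2722319 D. rerio reads, and replicate 4 had 211030 and 382285. The precision of the ratios did not follow the reads. Judged from the scatter of allele shares between replicates, replicate 3 carried the information of 35298 independent molecules, against 136997 in replicate 4 and 96392 in replicate 5. These molecules measure scatter, whatever its source, and are not a depth. Each log2 ratio below is paternal over D. rerio, centred on the library's median gene.

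The sorted libraries held the melanophore genes. tyrp1b, which encodes a tyrosinase-related protein, had summed values over both alleles of 99665, 21760 and 9447 in replicates 3, 4 and 5, against 56, 948 and 221 in unenriched skin. The groups did not overlap, and the gene was higher by 6.64 ± 1.08 on the log2(value + 20) scale (SE, n = 3 against 3, adjusted p = 0.0162). Of all 19616 genes, 3.8% lay above the skin libraries in this way. The cells had been sorted on a tyrp1b reporter, so this gene is no independent check of the sort. pmela, whose product forms the fibrils on which melanin is laid down, had 103653, 15788 and 5702. It was higher than in skin by 6.34 ± 1.0 (adjusted p = 0.0147). In all, 10 of 14 tested melanophore markers were higher than in skin. None was lower, but most of those called had low values in skin, such as a mean of 86.3 for mtbl. A lower call was hardly possible for them, and the markers had been chosen with earlier results of these data known. Of all 2141 genes tested 2.48% were called, 43 (2.01%) higher and 10 (0.467%) lower, and the 53 calls fell to 17 without replicate 4 and to 17 without xanthophore replicate 5 of the same hybrid. The count of markers was 7 without replicate 3 and 5 without replicate 4, when tyrp1b itself was not called (adjusted p = 0.0656). It was also 7 without xanthophore replicate 5, a library that stood apart from the others in its allele ratios and enters only through the shared spread. The 22 melanophore markers made up 3.78, 1.1 and 0.625% of the summed value in replicates 3, 4 and 5, so replicate 3 was the richest in them, against 0.0464 to 0.116% in skin.

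The enrichment was not pure. Iridophore markers made up 1.4, 1.36 and 0.353% of the values in replicates 3, 4 and 5 (0.0742 to 0.377% in skin, 17 genes, none at 0), and xanthophore markers 0.546, 0.343 and 0.907% (0.105 to 0.387%, 19 genes, none at 0). Iridophore markers thus exceeded the melanophore markers in replicate 4 (1.36 against 1.1%), and xanthophore markers exceeded them in replicate 5 (0.907 against 0.625%). The xanthophore gene gch2 had summed values of 14820, 5265 and 26842, in replicate 5 above tyrp1b (9447) and pmela (5702). Genes of dermal fibroblasts and scale made up 1.85, 3.33 and 5.51% (3.46 to 10.2% in skin), more than the melanophore markers in replicates 4 and 5. Leukocyte genes made up 1.37 to 1.94%, above the 0.598 to 1.28% of skin. Of 21 leukocyte genes tested by level, 4 were called higher (19%, beside 2.01% of all genes tested). They were the complement genes c1qa and c1qb, the galectin-binding protein gene lgals3bpb and the granulin gene grn1. grn1 is also a melanophore marker, with 14701, 2699 and 6341 of the 7389841, 5272089 and 5694161 summed over all genes in replicates 3, 4 and 5. Without it the share of leukocyte genes in replicate 3 would fall within the range of skin. In replicates 4 and 5 it would stay above that range. Keratinocyte genes (1.76 to 2.89%, against 3.45 to 5.59% in skin) and erythrocyte genes (0.00197 to 0.0655%, against 0.0912 to 0.279%) were scarcer than in skin in every replicate. Muscle genes lay at 0.0112 to 0.0398% (0.0187 to 0.173% in skin) with mylpfb at 0, and genes of glia and neurons at 0.0415 to 0.0822% (0.0718 to 0.102% in skin) with gfap at 0. In bulk samples fewer cells of a type and less RNA per cell cannot be told apart. The part of these other cells in the allele ratios below was not tested.

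**Figure D1:**
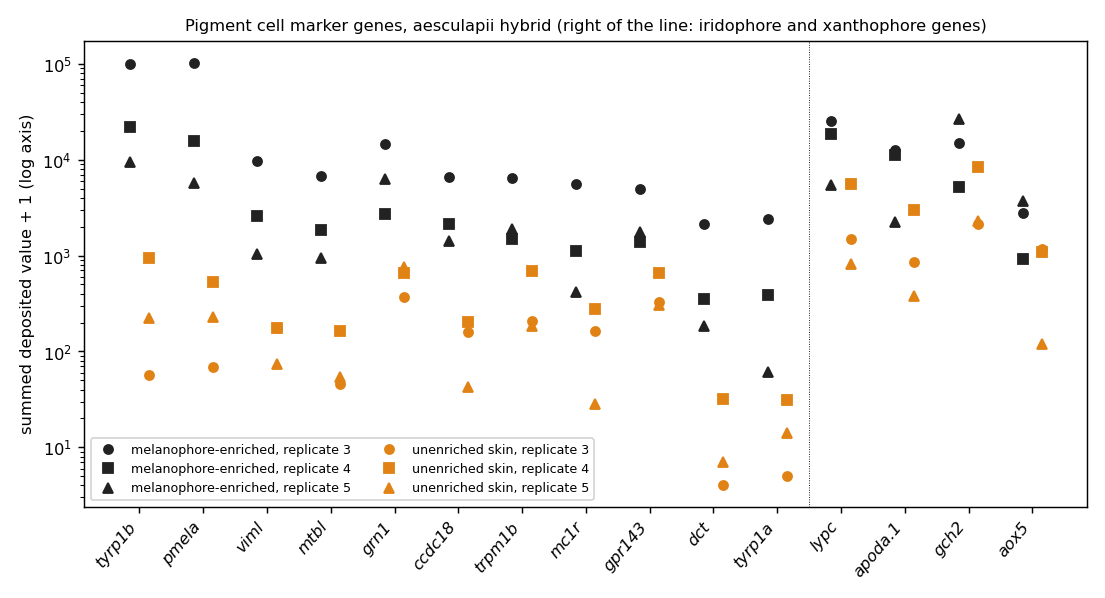
Summed deposited value plus 1 (log axis) of pigment cell genes in the 3 melanophore-enriched (black) and 3 unenriched skin libraries (orange) of the aesculapii hybrid, with 1 point per library and the symbol giving the replicate. The melanin genes tyrp1b and pmela lie above skin in all 3 replicates and highest in replicate 3, and the iridophore genes lypc and apoda.1 are also present.

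The main question was which genes gave unequal output from the 2 alleles in these libraries. Of 3165 genes with enough molecules to test, 266 (8.4%) had unequal alleles at an adjusted p under 0.05. The rule for assigning reads to alleles is not known. Whether reads of both alleles were assigned equally well was not tested, for these calls or for any below. The paternal allele was higher for 104 (3.29%) and the D. rerio allele for 162 (5.12%), while the median ratio of all tested genes was -0.04. Among genes with at least 5% of their estimated molecules from the rarer allele, the 99 paternal calls had a median log2 ratio of 1.82 (range 0.49 to 3.81) and the 125 D. rerio calls a median of -2.07 (range -3.72 to -0.41). A further 5 paternal and 37 D. rerio calls had under 5% of molecules from the rarer allele. Of the 78 paternal calls with a ratio in all 3 replicates, 74 were paternal in each, and 123 of 127 such D. rerio calls were on the D. rerio side in each. Genes were called partly for this agreement, and 622 of 1678 genes not called also had 1 sign in all 3. With the pairing by library given up, so that differences in level between libraries entered the error, 51 genes passed, 8 of them paternal. With the 3 melanophore libraries fitted alone, 188 passed. How much of the fall to 51 came from the pairing itself was not tested. Without replicate 4 or replicate 5, fewer genes could be tested, and 132 and 115 passed.

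**Figure D2:**
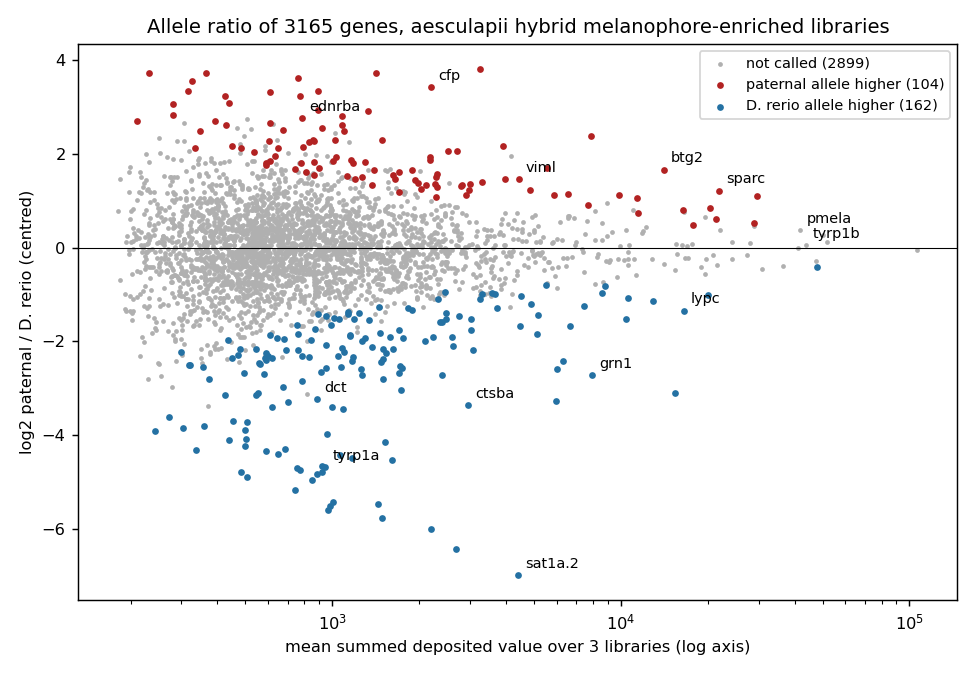
Fitted log2 ratio of paternal over D. rerio allele (vertical axis, centred) against the mean summed deposited value over the 3 melanophore-enriched libraries (log axis), 1 point per gene for 3165 genes. Red points mark the 104 genes with the paternal allele higher and blue points the 162 with the D. rerio allele higher. The melanin genes tyrp1b, near 0, and pmela, above 0, were not called.

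Every call among the melanin synthesis genes lay on the D. rerio side, and tyrp1b and pmela were not called. tyrp1b had paternal and D. rerio values of 52965 and 46700 in replicate 3, 12287 and 9473 in replicate 4, and 4729 and 4718 in replicate 5. Its paternal share lay between 50.1 and 56.5%, and its ratio of 0.06 ± 0.19 (SE, n = 3) was not called (adjusted p = 0.905). pmela had paternal shares of 55.5, 65.3 and 60.9% and a ratio of 0.38 ± 0.22 (adjusted p = 0.365). tyrp1b was thus near equality, while pmela lay on the paternal side in every replicate without being called. These shares are not centred. The median gene of replicate 3 had a log2 ratio of 0.282, and the 55.5% of pmela there was close to that gene. The summed values of both genes varied over 10-fold between replicates.

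In the same pathway dct and tyrp1a were strongly uneven. dct, the dopachrome tautomerase gene of the eumelanin pathway, had paternal values of 89, 25 and 5 against D. rerio values of 2028, 330 and 180 in replicates 3, 4 and 5. All 3 libraries were low for the paternal allele, at 4.2, 7.04 and 2.7% of the value, and the ratio was -3.23 ± 0.70 (adjusted p = 0.00914, and 0.0509 with molecules estimated from higher values). Each paternal value was under the estimated value of 1 molecule (209, 38.5 and 59.1 in replicates 3, 4 and 5). The size of the ratio therefore depends on the 0.5 molecules added to each allele, and it ran from -4.05 to -2.61 over all settings. tyrp1a, the duplicate of tyrp1b, was listed at 0 for the paternal allele in every replicate, against 2385, 385 and 60 for the D. rerio allele (adjusted p = 0.00229, from replicates 3 and 4, since replicate 5 held too few molecules). The paternal allele of tyrp1a was also at 0 in all 9 other libraries of the aesculapii hybrid, where D. rerio values ran from 2 to 147. Whether reads of the aesculapii copy of tyrp1a could be assigned at all was not tested. Of the 8 melanin synthesis genes tested, these 2 were called (25%, beside 8.4% of all genes tested) and 6 were not. The list median was -0.19. Among the others, the paternal share of the albinism transporter gene slc45a2 was 44.2, 59.7 and 75.5% (0.67 ± 0.51, adjusted p = 0.51), and that of the melanosomal receptor gene gpr143 was 54.8, 45.6 and 32.7% (-0.47 ± 0.40, adjusted p = 0.568). The tyrosinase gene tyr itself reached summed values of 1379, 178 and 7 and was too low to test, as were oca2 and slc24a5.

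Over all genes tested 8.4% were called, too few for a list of 17 to show a lack of calls. Genes that build and move pigment organelles showed no call in either direction among 17 tested, with a median of -0.04. They included the melanophilin genes mlpha (-0.88 ± 0.60, adjusted p = 0.447) and mlphb (0.75 ± 0.49, adjusted p = 0.421), adaptors for melanosome transport, and hps1 (1.49 ± 0.64, adjusted p = 0.189), a subunit of a complex that matures lysosome-related organelles. Most of these genes had few molecules, and their standard errors were wide. The better measured tetraspanin genes tspan36 (0.07 ± 0.29) and cd63 (-0.21 ± 0.25) had adjusted p of 0.939 and 0.706. Of 18 proton pump genes, which acidify melanosomes and lysosomes, only the subunit gene atp6v0b was called (-2.39 ± 0.56, adjusted p = 0.00983), on the D. rerio side.

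Among 8 tested genes of melanophore transcription and signalling 1 was called (12.5%, beside 8.4% of all genes tested), the endothelin receptor gene ednrba. In zebrafish this receptor is needed for the adult stripe pattern. Its paternal and D. rerio values were 1277 and 77 in replicate 3, 502 and 82 in replicate 4, and 401 and 8 in replicate 5. The paternal share was thus 94.3, 86 and 98%, high in every replicate, and the ratio was 2.76 ± 0.62 (adjusted p = 0.00777), which was no longer called without replicate 5 (adjusted p = 0.0792). The D. rerio value was under the estimated value of 1 molecule in replicates 3 and 5 (209 and 59.1). The ratio ran from 2.32 to 3.37 over all settings. ednrba is also an iridophore gene, and iridophore markers were present in these libraries. In the iridophore-enriched libraries its paternal share was 64.5, 89.8 and 83.3% (2.23 ± 0.31, adjusted p = 3.79e-05). The melanocortin receptor gene mc1r, which receives the signal for pigment dispersion and melanin synthesis, had shares of 75.1, 64.6 and 55.7% and was not called (0.90 ± 0.40, adjusted p = 0.211). Nor was sox10, a neural crest transcription factor gene (0.21 ± 0.56, adjusted p = 0.892), and mitfa and kita were too low to test.

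Of the 17 tested melanophore markers 29.4% were called, 1 paternal and 4 D. rerio, beside 8.4% of all genes tested. The paternal call was viml. This vimentin-like gene had paternal values of 7923, 1843 and 692 and D. rerio values of 1720, 742 and 341, hence shares of 82.2, 71.3 and 67%, all above equality (1.46 ± 0.31, adjusted p = 0.00502, and 0.0774 without replicate 3). On the D. rerio side, beside dct and tyrp1a, stood the granulin gene grn1 and the chemokine gene cxcl19. grn1 had paternal shares of 23.7, 8.37 and 9.78% (-2.71 ± 0.31, adjusted p = 5.33e-06). cxcl19 had 26.4, 16.4 and 7.2% (-2.71 ± 0.46, adjusted p = 0.00125, and 0.107 without replicate 5). grn1 is listed with leukocytes and lysosomes as well. The share of leukocyte genes was higher in these libraries than in skin, in replicate 3 only with grn1 included. grn1 was itself among the leukocyte genes called higher. The ion channel gene trpm1b (-0.92 ± 0.34, adjusted p = 0.111) and the marker gene mtbl (-0.37 ± 0.37, adjusted p = 0.644) were among the 12 markers not called.

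**Figure D3:**
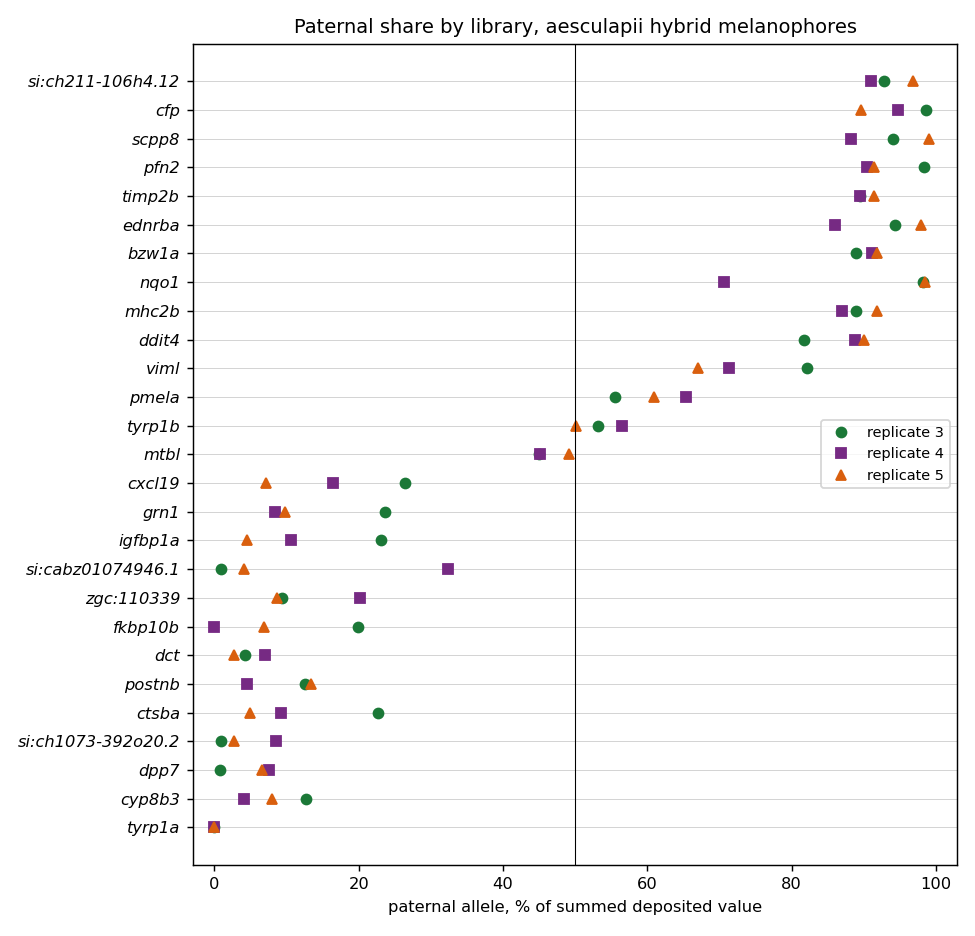
Paternal allele as a percentage of the summed deposited value (horizontal axis) for named genes in the 3 melanophore-enriched libraries of the aesculapii hybrid, with 1 point per library and a line at equality. The 3 points of ednrba lie between 86 and 98%, those of tyrp1b between 50.1 and 56.5%, those of dct between 2.7 and 7.04%, and those of tyrp1a at 0.

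Of 13 tested genes with a known part in adult pigment pattern, 2 were called (15.4%, beside 8.4% of all genes tested). One was ednrba and the other sat1a.2, which encodes an acetyltransferase of polyamines, small molecules whose synthesis is needed for normal zebrafish stripes. sat1a.2 was listed at 0 for the paternal allele in all 3 replicates, against D. rerio values of 5972, 3476 and 3765 (adjusted p = 5.38e-11). In the other 9 aesculapii libraries its paternal values were 0 in 8 and 1 in the remaining skin library, beside D. rerio values of 1581 to 6054. Its symbol marks it as one of several related copies, and how reads were shared between copies is not given. Other pattern genes had ratios that were not called, including the glycerol channel gene aqp3a (-0.48 ± 0.21, adjusted p = 0.194), the ligand genes csf1a (-0.05 ± 0.51) and kitlga (-0.14 ± 0.44), and the ornithine decarboxylase gene odc1 (0.37 ± 0.31).

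The largest paternal ratios with at least 5% of molecules from the rarer allele and 1 direction in all replicates belonged to genes of several kinds. Where the rarer allele held few molecules, the size of such a ratio depends on the 0.5 molecules added to each allele. cfp, the gene for the complement regulator properdin, had paternal values of 2406, 1229 and 2555 against 33, 69 and 297 (3.43 ± 0.35, adjusted p = 3.03e-06). scpp8, which encodes a secreted calcium-binding phosphoprotein, had paternal shares of 94.1, 88.3 and 99.1% (3.34 ± 0.51, adjusted p = 0.000405). The metalloproteinase inhibitor gene timp2b had 89.5, 89.5 and 91.5% (2.81 ± 0.47, adjusted p = 0.000686). In all 3 genes every library was strongly paternal. Ratios of 2.49 to 2.93 were also found for pfn2, which encodes an actin-binding profilin, bzw1a, the quinone reductase gene nqo1, the class II histocompatibility gene mhc2b and ddit4, an inhibitor of growth signalling. nqo1 varied most, with shares of 98.2, 70.7 and 98.5%, and was lost without replicate 3 (adjusted p = 0.0714), as was ddit4 without replicate 5 (adjusted p = 0.189). si:ch211-106h4.12, a gene named only by its clone, had the largest ratio of the set (3.81 ± 0.45).

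Genes with high values gave smaller but tighter paternal ratios. btg2, an early-response gene that restrains proliferation, had paternal values of 14854, 9591 and 8534 against 3533, 2713 and 3021, shares of 80.8, 78 and 73.9% (1.67 ± 0.20, adjusted p = 6.92e-06). sparc, which encodes a collagen-binding matrix protein typical of fibroblasts and scale cells, had shares of 68.8, 71.3 and 72.7% (1.22 ± 0.16, adjusted p = 1.52e-05). zgc:162730 had shares of 68.3, 68.3 and 73.3% (1.11 ± 0.14, adjusted p = 1.78e-05). These 3 genes varied by under 7 percentage points between replicates. Smaller paternal ratios were called for the annexin gene anxa2a (0.85 ± 0.15), the chemokine receptor gene cxcr4b (0.80 ± 0.19), the AP-1 transcription factor gene junba (0.62 ± 0.14), s100a10b (0.53 ± 0.14) and the transcription factor gene atf4b (0.49 ± 0.15). s100a10b and atf4b were lost when any single replicate was left out, with adjusted p up to 0.0865 and 0.168. junba was lost without replicate 5 (adjusted p = 0.0563) and cxcr4b without replicate 4 (adjusted p = 0.124), and atf4b also with replicate number as a block (adjusted p = 0.071).

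On the D. rerio side, by the same rule, the largest ratios included lysosomal and matrix genes. ctsba, encoding the lysosomal protease cathepsin B, had paternal values of 600, 238 and 178 against 2042, 2336 and 3429 (-3.35 ± 0.34, adjusted p = 7.73e-07). postnb, the matrix protein periostin, had paternal shares of 12.6, 4.44 and 13.4% (-3.28 ± 0.29, adjusted p = 2.32e-07), and fkbp10b, a collagen-folding isomerase, 19.9, 0 and 6.89% (-3.10 ± 0.55, adjusted p = 0.000987). In each of these genes all 3 libraries held under 25% paternal value. The cytochrome P450 gene cyp8b3 (-3.44 ± 0.51), the peptidase gene dpp7 (-3.39 ± 0.41), the insulin-like growth factor binding protein gene igfbp1a (-2.81 ± 0.40) and the genes zgc:110339 (-3.10 ± 0.30), si:ch1073-392o20.2 (-3.39 ± 0.57) and si:cabz01074946.1 (-2.85 ± 0.69) completed the 10 largest with dct. Taken over deposited values instead of molecules, the paternal share of dct was 4.48%, and a 5% minimum on that scale would put grn1, cxcl19 and ms4a17a.10 (-2.68 ± 0.40) in place of dct, dpp7 and si:ch1073-392o20.2. si:cabz01074946.1 was the least even of them, at 0.865, 32.4 and 4.08%.

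Among genes with high values, ctsd, encoding cathepsin D, had paternal values of 5421, 1354 and 2188 against 11930, 4266 and 6022 (-1.51 ± 0.20, adjusted p = 2e-05). lypc, an iridophore marker, had shares of 32.4, 26.1 and 36.7% (-1.34 ± 0.21, adjusted p = 0.000203), and in the iridophore-enriched libraries, where its values were higher, 35.5, 33 and 34.5%. Its shares in the 2 kinds of cells overlapped. Ratios from -1.14 to -0.96 were found for the detoxifying gene gstp1, the ribosomal protein gene rps2, the keratinocyte gene icn and the apolipoprotein D gene apoda.1, of which apoda.1 was lost without replicate 4 (adjusted p = 0.249) and rps2 without replicate 3 (adjusted p = 0.0863). The beta-actin gene actb2 had the smallest called D. rerio ratio, -0.41 ± 0.11 (adjusted p = 0.025), with shares of 47.3, 45 and 41.9%, and was lost without replicate 3 or 5 (adjusted p up to 0.108). actb2 has a near-identical sister gene, so its assignment is uncertain.

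Other gene groups also held calls, to be read beside the 8.4% of all genes tested. The share called was 21.4% of lysosomal, 14.3% of antigen presentation, 27.3% of pteridine and carotenoid genes and 25% of genes listed under purine synthesis. These lists are small, and whether they held more calls than other genes was not tested. Of 28 lysosomal genes, ctsba, ctsd, grn1 and the glucuronidase gene gusb (-2.54 ± 0.62) were on the D. rerio side, and the membrane protein gene laptm4a (1.30 ± 0.33) and the cholesterol transporter gene npc1 (2.27 ± 0.50) on the paternal side, with a median of -0.04. The fit of npc1 rests on replicates 4 and 5, as replicate 3 held an estimated 0.5 molecules. Of 14 listed antigen presentation genes 2 were called, both D. rerio, while mhc2b, which is not on that list, was paternal: mhc1zba with paternal shares of 17.2, 28.7 and 18.4% (-1.85 ± 0.27) and mhc2dab with 18.4, 28.8 and 7.62% (-2.16 ± 0.47). Histocompatibility genes differ in copy number between haplotypes, so their assignment is uncertain. Of 11 genes of pteridine and carotenoid metabolism, which make and process yellow and orange pigments in xanthophores, 3 were called, all D. rerio: the aldehyde oxidase gene aox6 (-2.58 ± 0.52), the carotenoid oxygenase gene bco2b (-2.44 ± 0.59) and the phenylalanine hydroxylase gene pah (-1.93 ± 0.55). The list's median was -0.72. The list of 12 tested genes for purine synthesis, used for the guanine crystals of iridophores, also holds the purine breakdown gene ada. In that list ada (2.30 ± 0.50) and adsl (1.31 ± 0.32) were paternal and mthfd1b (-2.51 ± 0.73, replicates 4 and 5 only) was D. rerio, with a median of 0.24.

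Immediate early and heat shock genes are known to be induced by dissociation of skin. They had 5 paternal and 4 D. rerio calls of 43 tested (20.9%, beside 8.4% of all genes tested), with a median of -0.05. The paternal calls were btg2, junba, the zinc-finger genes klf6a (1.13 ± 0.25) and zfp36l1a (0.74 ± 0.22) and the heat shock gene hsp70.1, with shares of 92.1, 75.2 and 76.4% (1.88 ± 0.35). The D. rerio calls were the AP-1 gene fosl1a (-2.66 ± 0.57) and the heat shock genes hsp70.2 (-1.99 ± 0.34), hsp70.3 (-1.76 ± 0.33) and hsp70l (-1.43 ± 0.26). The hsp70 copies are nearly identical in sequence and lay on opposite sides, so reads could have been split between them, which was not tested. These genes made up 6.31 to 6.73% of the value in the sorted libraries and 7.97 to 8.43% in skin.

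Markers of other skin cells were called on either side as well. The share called was 25% of keratinocyte, 14.3% of dermal fibroblast and scale and 12.5% of leukocyte genes tested, beside 8.4% of all genes. These lists are small, and whether they held more calls than other genes was not tested. Of 20 keratinocyte genes, krt4 (1.12 ± 0.18, shares of 74, 68.9 and 68.8%) and cyt1l (3.32 ± 0.91, replicates 4 and 5 only) were paternal, and icn, epcam (-1.66 ± 0.32, shares of 26.9, 24.2 and 24.5%) and cldni (-1.41 ± 0.40, replicates 4 and 5 only) were D. rerio. Of 21 genes of dermal fibroblasts and scale, sparc was paternal and postnb and the collagen gene col5a1 (-1.29 ± 0.37) D. rerio. Of 24 leukocyte genes, cxcr4b was paternal and grn1 and the oxidase subunit gene ncf1 (-2.98 ± 0.63, replicates 4 and 5 only) D. rerio. There were 1 paternal and 5 D. rerio calls among 78 ribosomal protein genes (7.69%, median -0.14), and 3 D. rerio calls among 71 nuclear genes of the respiratory chain (4.23%, median -0.18), beside 8.4% of all genes. Of the 43 genes higher than in skin by level, 36 had no call, 4 had a paternal and 3 a D. rerio call. Of all genes tested, 3.29% had a paternal and 5.12% a D. rerio call. The median absolute ratio of the 43 genes, 0.59, stood beside 0.54 for all tested genes. Whether the 43 held more calls than other genes was not tested.

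For 22 of the D. rerio calls the paternal allele was listed at 0 in all 3 melanophore libraries, and no call had the D. rerio allele at 0 throughout. Those with the highest values were sat1a.2, the matrix Gla protein gene mgp (D. rerio values of 2786, 1779 and 3484) and the phosphatase subunit gene ppp1cbl (3112, 1683 and 1810). All 22 genes had under 1% paternal value in the skin, iridophore and xanthophore libraries of the same hybrid as well. Of the 37 D. rerio calls with under 5% of molecules from the paternal allele, 33 could be assessed in melanophores of all 3 other hybrids. There, 26 were single-allele in none, 4 in 1, 2 in 2 and 1 in all 3 of them. ppp1cbl, for example, had paternal values of 1, 5 and 5 beside 3011, 2983 and 2675 in the kyathit hybrid but 2219, 893 and 967 in the nigrofasciatus hybrid. Among paternal calls, the urokinase gene plaua (shares of 98.3, 93 and 98.8%), FAM135B and si:ch211-283g2.3 led those with under 5% from the D. rerio allele.

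Unenriched skin of the same hybrid, not known to be from the same fish, gave a second reading of the alleles. No gene differed in allele ratio between melanophores and skin among 3052 tested (0% called), by limma at an adjusted p under 0.05, while 172 (5.64%) had an unadjusted p under 0.05. The smallest adjusted p, 0.124, belonged to ptgr1 (2.06 ± 0.39), and plaua (2.50 ± 0.62), igfbp1a (-1.98 ± 0.45) and grn1 (-1.49 ± 0.44) had adjusted p of 0.622, 0.332 and 0.622. The median SE of a difference was 0.62, so moderate shifts in many genes could have been missed. The shift of grn1 had an unadjusted limma p of 0.00325 and did not pass once adjusted over the 3052 genes. 1 gene passed with no filter on low values, and 1 without replicate 4. dct, tyrp1a and ednrba could not be compared with skin.

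Ratios called in the melanophore libraries mostly kept their side in the other libraries of the hybrid. In skin, 99 of 101 tested paternal calls and 155 of 158 D. rerio calls had the same sign, against 68.8% of genes that were not called. The medians there were 1.26 and -1.71, beside 1.82 and -2.32 in the melanophore libraries. Because these genes were picked by their melanophore ratios, smaller medians in other libraries follow in part from that choice. They do not show a stronger imbalance in melanophores. In iridophore-enriched libraries 67 of 77 paternal and 115 of 117 D. rerio calls had the same sign, and in xanthophore-enriched libraries 68 of 69 and 109 of 114. In skin, for example, btg2 had paternal shares of 72.7, 75 and 79.8%, and ctsba 9.38, 11.2 and 7.58%. The fits of these groups share a spread but no library. Against the mean of iridophores and xanthophores, 1 of 1400 genes (0.0714%) differed, npc1, by 3.83 ± 0.66 (adjusted p = 0.0477). Its paternal shares were 42.7, 83.5 and 86.4% in melanophores, 2.84, 40.9 and 37.4% in iridophores and 16, 2.2 and 6.01% in xanthophores. The call rests on melanophore replicates 4 and 5. It was lost with replicate number as a block (adjusted p = 0.164), with no filter on low values (adjusted p = 0.373) and with no centring (adjusted p = 0.0514), and no gene passed without xanthophore replicate 5.

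**Figure D4:**
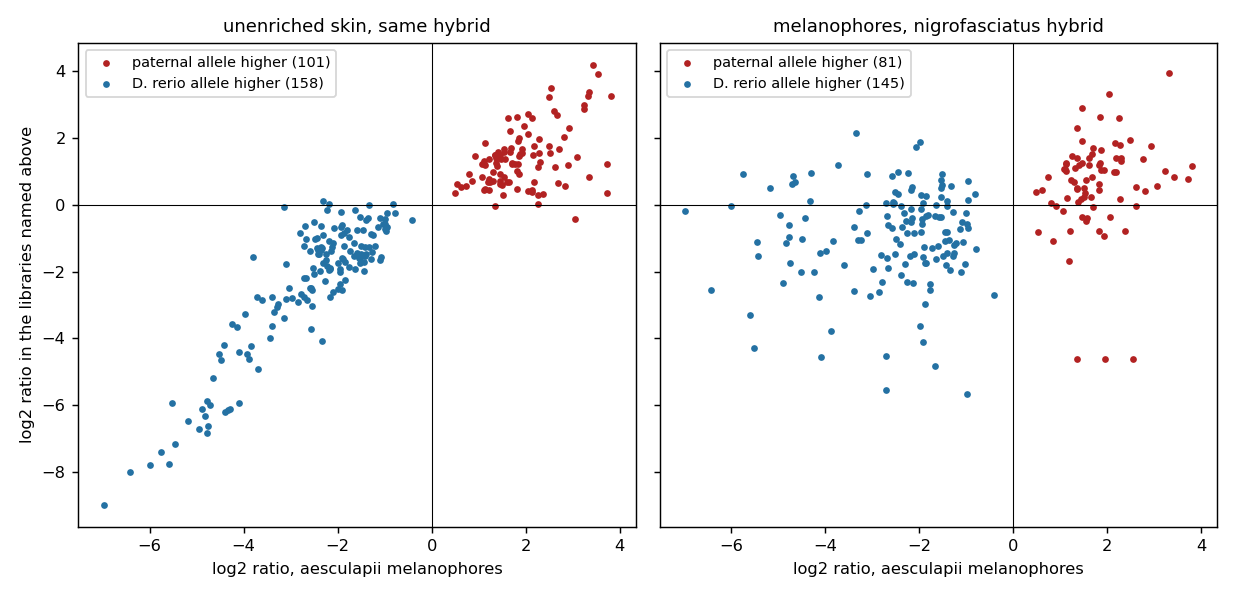
Fitted log2 ratio of the genes called in aesculapii melanophores (horizontal axis) against the ratio of the same genes in unenriched skin of that hybrid (left) and in melanophores of the nigrofasciatus hybrid (right), 1 point per gene, both axes paternal over D. rerio. In skin, 99 of 101 paternal and 155 of 158 D. rerio calls keep their sign, and in the nigrofasciatus hybrid 63 of 81 and 108 of 145.

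In melanophores of the other hybrids the same sign was found for 67 of 80 paternal and 112 of 148 D. rerio calls in the albolineatus hybrid, 62 of 72 and 122 of 152 in the kyathit hybrid, and 63 of 81 and 108 of 145 in the nigrofasciatus hybrid. For genes not called, 57.9 to 59.2% had the same sign. Tested directly, the aesculapii ratio differed from the mean of the other 3 hybrids for 105 of 1979 genes (5.31%), higher for 51 (2.58%) and lower for 54 (2.73%). The D. rerio allele comes from the same species in all 4 hybrids. Of the 54 lower genes, 49 also had a D. rerio call in aesculapii, whereas of the 51 higher genes 11 had a paternal and 1 a D. rerio call. The other 39 higher genes had no call in aesculapii, and 35 of them had one, in either direction, in another hybrid. Of all genes tested, 11.8% were called in the albolineatus, 15% in the kyathit and 17.1% in the nigrofasciatus hybrid. A gene picked for its difference and not called in aesculapii is likely to be called elsewhere by that choice. The 35 are therefore no separate evidence. Without replicate 4 or 5 of aesculapii, 53 and 37 genes passed.

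Among the lower genes were both melanin genes with uneven alleles. dct had paternal shares of 7.19, 36.2 and 14.7% in the albolineatus hybrid, 44.7, 59.6 and 47.5% in the kyathit hybrid and 32.9, 31.4 and 36.9% in the nigrofasciatus hybrid. The aesculapii ratio was lower than their mean by -2.13 ± 0.55 (adjusted p = 0.0292), and the 4.2, 7.04 and 2.7% of aesculapii lay below every other library, the nearest being albolineatus replicate 3. dct was also called on the D. rerio side in the albolineatus (-2.26 ± 0.45, adjusted p = 0.00237) and nigrofasciatus hybrids (-1.04 ± 0.26, adjusted p = 0.0107). It was not called in the kyathit hybrid (-0.02 ± 0.33, adjusted p = 0.984). The tyrp1a gene had 24.3 to 73.9% paternal value in the 9 libraries of the other hybrids and none in aesculapii (adjusted p = 0.000172). ctsba differed in sign, with 62.1 to 87% paternal value in the other hybrids against 4.93 to 22.7% in aesculapii (-4.81 ± 0.46, adjusted p = 2.78e-06). postnb (-3.09 ± 0.36) and ctsd (-1.52 ± 0.28) were also lower. The largest differences belonged to genes listed at 0 for the aesculapii allele: sat1a.2, the coatomer gene cope, the oligosaccharyltransferase subunit gene ostc and the glutathione transferase gene mgst3b, whose paternal shares in the other hybrids ran from 19.6 to 79.1%.

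Among the higher genes, viml was called paternal in aesculapii, had 63.7, 62.6 and 66.2% in the albolineatus hybrid (0.70 ± 0.27, not called, adjusted p = 0.105), was near equality in the nigrofasciatus hybrid (50.8, 47.3 and 38.1%) and was mostly D. rerio in the kyathit hybrid (11.2, 11.8 and 9.55%), a difference of 2.34 ± 0.30 (adjusted p = 4.11e-05). sparc was higher by 1.13 ± 0.18 (adjusted p = 0.000366) and anxa2a by 0.78 ± 0.21 (adjusted p = 0.0353). The 5 largest differences were in genes with no call in aesculapii, and the uneven alleles were those of other fathers. tmsb4x, which encodes an actin-binding thymosin, had 52.4, 55.7 and 44.6% in aesculapii and was listed at 0 in all 3 kyathit libraries. Its ratios in the albolineatus (-0.37 ± 0.26, adjusted p = 0.38) and nigrofasciatus hybrids (0.48 ± 0.27, adjusted p = 0.254) were not called, so of the 4 hybrids kyathit alone had a call. tmed7, a cargo receptor gene of the secretory pathway, was listed at 0 in the kyathit and nigrofasciatus libraries and was not called in albolineatus (-0.37 ± 0.61, adjusted p = 0.75). The membrane fusion gene stx18 was listed at 0 in the nigrofasciatus libraries and not called in kyathit (-0.15 ± 0.51, adjusted p = 0.899) or albolineatus (-1.39 ± 0.61, adjusted p = 0.153). The tmed7 difference was lost with the replicate block (adjusted p = 0.0659). For tmed7, stx18 and tbk1 the aesculapii value rests on replicates 4 and 5. bloc1s6, a subunit of a complex needed for melanosome biogenesis, had 77.4, 53.4 and 66% in aesculapii, 10.6 to 30.4% in the kyathit hybrid and at most 0.757% in the nigrofasciatus hybrid. The kinase gene tbk1 had 38.6, 56.3 and 78% in aesculapii and 8.35, 15 and 8.37% in the nigrofasciatus hybrid. The ratio of tyrp1b did not pass the test of a difference (0.10 ± 0.19, adjusted p = 0.833). Nor did those of grn1 (0.20 ± 0.46, adjusted p = 0.865), cxcl19 (1.32 ± 0.58, adjusted p = 0.237) and ednrba (1.18 ± 0.57, adjusted p = 0.295). On the D. rerio side, grn1 was also called in kyathit (-2.73) and nigrofasciatus (-5.55) but not albolineatus (-0.44). There too, cxcl19 was called in albolineatus (-3.92), kyathit (-3.64) and nigrofasciatus (-4.52). ednrba was called paternal in kyathit (2.28) but not albolineatus (1.09) or nigrofasciatus (1.36).

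**Figure D5:**
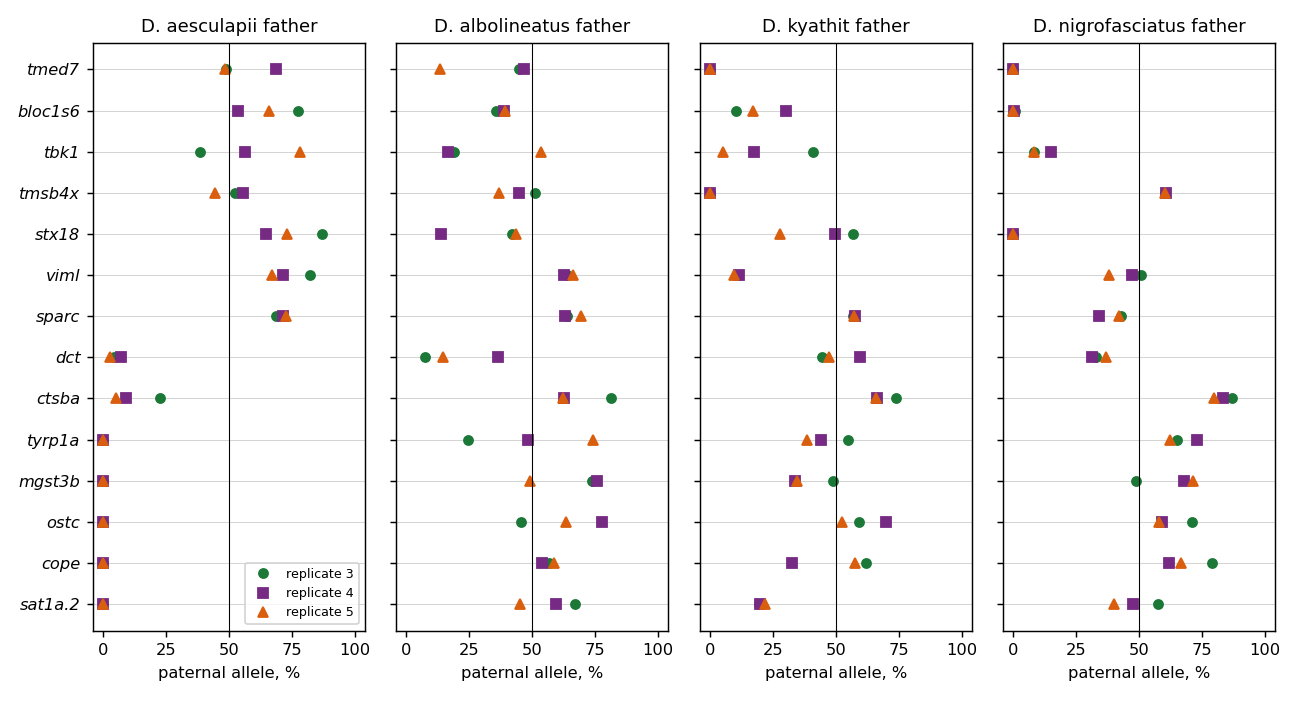
Paternal allele as a percentage of the summed deposited value (horizontal axis) in the 12 melanophore-enriched libraries, 1 panel per father and 1 point per library, for genes that differed between aesculapii and the other hybrids. The genes ctsba and tyrp1a sit low only in the aesculapii panel among the libraries shown, dct is low there and in part of the albolineatus libraries, and tmsb4x is at 0 in kyathit.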

How the data were processed

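PolyA RNA from sorted cells or whole skin was amplified with a SMART-seq2 kit and sequenced from both ends of Nextera libraries, per the labels. Per the submitters' processing notes, GRCz11, featureCounts and DESeq2 1.44.0 were used. No source used here gives the aligner or the rule for assigning reads to alleles. The deposited values have the unit score: rounded allele read counts after division by size factors, 1 for each allele of each library, so the planned count test was replaced by limma.

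For each library the value of 1 molecule was estimated from the binomial scatter of the paternal share between replicates (summed values of 300 to 3000), which gave 209, 38.5 and 59.1 in melanophore replicates 3, 4 and 5. The log2 ratio of molecules plus 0.5 was centred per library on genes with 5 or more molecules (removing 0.282, 0.062 and 0.003, and 0.861 in xanthophore replicate 5), and ratios from under 3 molecules were left out. Genes with 5 molecules in 2 of 3 libraries were tested with limma 3.58.1 in R 4.3.3, with precision weights (lowess span 0.3) and trended, robust moderation over the 12 aesculapii libraries (or the 12 melanophore libraries between hybrids). Differences also needed 5% and 10 molecules from the rarer allele, a rule added after the data had been seen. Levels were compared as log2(value + 20). P-values are two-sided with Benjamini-Hochberg adjustment over all genes tested and a threshold of 0.05. The method was also run on simulated data, and no result given here rests on that run.

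Named genes were the 10 largest ratios per direction with 1 sign in all replicates and at least 5% of molecules from the rarer allele (the rule as first written took 5% of the deposited value, which gives 123 in place of 125 D. rerio calls with both alleles and 99 paternal calls either way), the 8 with the highest values, the 3 with the highest values and a single allele, all calls in the pigment lists and the 5 largest differences per comparison; other list members are named with their values. Members and lists were chosen with earlier results of these data known. Same-numbered libraries share a labelled batch, and their deviations in allele ratio correlated at -0.0932 to 0.0701 between melanophores and the other kinds. Spearman correlations between melanophore replicates were 0.322 to 0.372 for ratios over 3165 genes, which are not independent.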

Additional observations from a re-analysis of the deposited data

Results flagged for a closer look

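These genes stand out because their allele ratio in aesculapii melanophores differed, by the test of the difference itself, from that of another group. npc1 differed from iridophores and xanthophores by 3.83. Against melanophores of the other 3 hybrids, the ratio was higher for tmed7 by 3.34, bloc1s6 by 3.14, tbk1 by 2.90, tmsb4x by 2.90 and stx18 by 2.84, and the difference was -6.41 for sat1a.2, -6.19 for cope, -5.76 for ostc, -5.10 for mgst3b and -4.95 for tyrp1a. Where an allele is listed at 0, which holds for the aesculapii allele of the last 5 genes and for another father's allele of tmed7, tmsb4x and stx18, the fitted difference depends on the pseudocount and is not a fold change. tmed7, bloc1s6, tbk1, tmsb4x and stx18 had no call in aesculapii, and each was called on the D. rerio side in 1 or 2 of the other hybrids. With 3 libraries per group, single libraries were not tested for outlying values, although xanthophore replicate 5 stood apart in its allele balance (58.7% paternal).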

How the results depend on the processing

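Of 266 genes with unequal alleles, 51 passed with alleles unpaired, and 115 to 233 when each melanophore replicate was left out, and 244 without xanthophore replicate 5. Paternal calls were 39.1% of the 266 and 15.7% of the 51. The shift from skin went from 0 genes to 1 with no filter on low values, and to 0 to 1 across the left-out replicates. The shift from iridophores and xanthophores, 1 gene (npc1), was 0 with a pseudocount of 0.125 molecules, no filter, a minimum of 10 molecules, no centring, centring on summed values, no precision weights, the replicate block, molecules estimated from values of 1000 to 10000 and without xanthophore replicate 5, and 0 to 1 across the left-out replicates. The difference between hybrids was 105 genes and 37 to 96 across them. The level comparison with skin, 53 genes, gave 103 with a pseudocount of 100 (68.9% higher, against 81.1%), 83 with recomputed size factors (a median change over genes of 0.145), 17 without xanthophore replicate 5 and 17 to 57 across the left-out replicates. The cause was not tested, except that leaving out replicate 4 or 5 lowers the number of genes whose allele ratio can be tested. The replicate block gave 233, 0, 88 and 74 genes for the unequal alleles, the shift from skin, the hybrids and the levels, within 1.5 times of the main counts. Of the 45 named genes with unequal alleles, 12 were lost without some library, 30 with alleles unpaired and none changed sign. The settings that keep single alleles, change the molecule range or leave out xanthophore replicate 5 were chosen after seeing the data. Scatter of the allele shares, which did not follow the reads, limits replicate 3 most.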
